A study of Saccharomyces cerevisiae with 36 samples.

Results

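The genes described here are the enzymes of Saccharomyces cerevisiae that open the breakdown of aromatic and branched amino acids to fusel alcohols (the Ehrlich pathway), a transcription factor that controls part of it, and the enzymes that turn the alcohols into acetate esters. They were picked by gene identifier and are 10 of the 6717 genes in the deposited tables. ARO8, ARO9, BAT1 and BAT2 encode transaminases, ARO10, PDC5 and PDC6 encode decarboxylases, ARO80 encodes the regulator, and ATF1 and ATF2 encode alcohol acetyltransferases. Their mRNA was measured by sequencing in wine yeast strain 12 (dominant) and strain 11 (non-dominant), grown mixed or alone in Nebbiolo must. Cells were sampled at 12, 20 and 30 h, which the protocol places at the start and middle of exponential growth and at the start of the stationary phase. Each strain carried GFP or eSapphire under the GPD promoter together with the KANMX marker, integrated on chromosome I, and the cells of each strain were isolated by their fluorescence in a flow cytometer. With 3 replicate libraries per group, the 12 groups of strain, culture and time make 36 libraries.

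In the Ehrlich pathway, a transaminase removes the amino group of phenylalanine, tyrosine, tryptophan, leucine, isoleucine or valine, a decarboxylase turns the resulting keto acid into an aldehyde, and a dehydrogenase reduces the aldehyde to a fusel alcohol or oxidises it to a fusel acid. The pathway lets yeast use these amino acids as nitrogen sources, and it is the origin of phenylethanol and isoamyl alcohol in wine. Alcohol acetyltransferases then join the alcohols to acetyl-CoA and give the fruity acetate esters. Aro80 is known as an activator of ARO9 and ARO10 that responds to aromatic amino acids.

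The sequences upstream of ARO9, ARO10 and ARO80 are shown because these windows hold the letters known for Aro80 binding, CCGNNNNNNNCCG, and because ARO9 and ARO10 carry the largest differences described below. They are from the R64 reference genome, not from the wine strains, and run 5′ to 3′ on the coding strand. Capitals mark the outer CCG (or CGG, where the match is on the opposite strand) of each match.
ARO9: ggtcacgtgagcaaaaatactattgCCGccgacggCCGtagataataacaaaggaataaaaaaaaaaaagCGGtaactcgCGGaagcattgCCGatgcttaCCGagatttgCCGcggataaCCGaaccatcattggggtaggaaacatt
ARO10: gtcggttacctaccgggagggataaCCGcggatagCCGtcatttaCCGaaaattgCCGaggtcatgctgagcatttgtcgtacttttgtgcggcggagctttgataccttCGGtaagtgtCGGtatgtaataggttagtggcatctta
ARO80: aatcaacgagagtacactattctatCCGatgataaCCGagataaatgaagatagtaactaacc
In R64 the ARO9 window is chrVIII:375453-375601, the ARO10 window chrIV:1233851-1233998 and the ARO80 window chrIV:1311873-1311935, all on the plus strand.

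Within 400 bases upstream of the start codon, searched on both strands, ARO9 had 5 matches, ARO10 had 4 and ARO80 had 1, and in ARO9 and in ARO10 a run of 3 matches shares the CCG between neighbours. The same letters stood in 4.34% of 6007 such windows, and the count of 4 or more matches was reached by 2 genes, ARO9 and ARO10. The other 7 genes had no match to these letters. GATAAG, the letters read by the GATA factors of nitrogen control, stood upstream of ARO8, BAT1 and PDC6 and of 18.8% of all genes. TGACTC, read by Gcn4, stood upstream of BAT1 and of 10.3% of all genes, and CCGNNNNCGG, read by Leu3, upstream of ARO9, BAT1 and BAT2 and of 2.45% of all genes. The ARO9 match to CCGNNNNCGG lies inside a match to CCGNNNNNNNCCG. A match is a description of the letters and not a binding site.

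**Figure D1:**
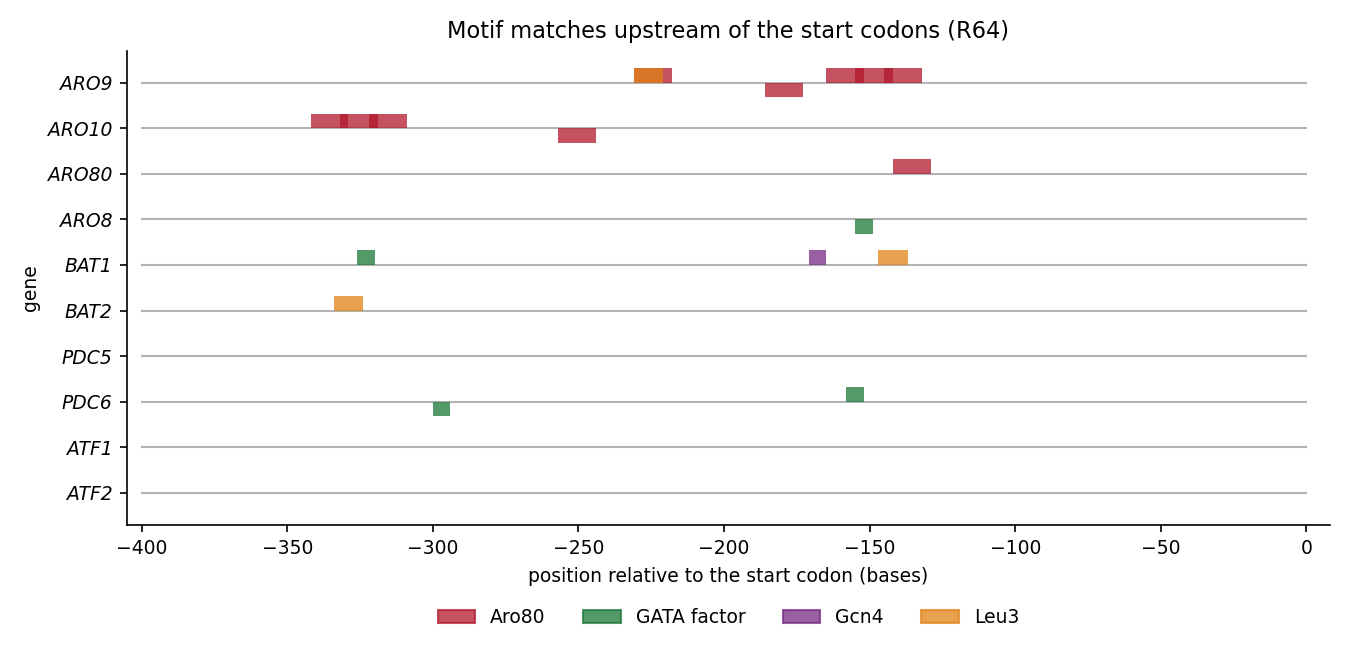
Matches to the letters of Aro80, GATA factors, Gcn4 and Leu3 in the 400 bases upstream of the 10 start codons in R64. The x axis is the position relative to the start codon in bases, and boxes above the grey line are on the coding strand and boxes under it on the opposite strand. ARO9 holds 5 Aro80 matches, ARO10 holds 4 and ARO80 holds 1.

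In the Saccer2 coordinates of the deposited tables, the transaminase genes are ARO8 (YGL202W) at chrVII:116063-117565, ARO9 (YHR137W) at chrVIII:375712-377253, BAT1 (YHR208W) at chrVIII:517532-518713 and BAT2 (YJR148W) at chrX:705735-706865. The decarboxylase genes are ARO10 (YDR380W) at chrIV:1234211-1236118, PDC5 (YLR134W) at chrXII:410724-412415 and PDC6 (YGR087C) at chrVII:651294-652985. The remaining genes are ARO80 (YDR421W) at chrIV:1312033-1314885, ATF1 (YOR377W) at chrXV:1046224-1047801 and ATF2 (YGR177C) at chrVII:848834-850441. Each has 1 exon, and PDC6 and ATF2 are on the minus strand. ARO9 shares 651 bases with YHR137C-A on the opposite strand, and ATF2 shares 239 bases with YGR176W. The sources used here do not give the use of strand in counting, so the reads of these overlapping genes cannot be told apart. Over the coding sequences of R64, PDC5 is 87.2% identical to PDC1, the main pyruvate decarboxylase gene, and PDC6 is 73.5% identical to PDC5. BAT2 is 71.2% identical to BAT1. No window of 75 bases, the read length, was identical within any of these pairs (0 of 1618 windows for PDC5 and 0 of 1057 for BAT2).

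The libraries held 35400 to 530376 reads on genes, with medians of 230090, 88929 and 91418.5 at 12, 20 and 30 h. Levels are given as counts per M reads (CPM) with TMM scaling. Whether the libraries of compared groups overlap is given below as a description only, without the share of all genes whose libraries do not overlap. A lower level in a sorted fraction may come from fewer expressing cells or from less RNA per cell, which cannot be told apart. Strain markers found earlier in these data were used to look for RNA of the other strain. SSU1 and YHB1 mark strain 12, and their sum in the strain 11 fractions is given as a percentage of that in strain 12 single cultures. At 12 h it was 6.57 to 9.14% in mixed and at most 1.25% in single cultures of strain 11. The later values were 9.65 to 21.2% in mixed and at most 6.15% in single cultures (20 h), and 9.05 to 26.6% in mixed and at most 6.58% in single cultures (30 h). The strain 12 mixed fractions held 0 to 4, 2 to 6 and 0 to 2 reads of the 3 strain 11 markers (YLR227W-B, YNL284C-B and YNL284C-A) at 12, 20 and 30 h, against 0 reads in every strain 12 single culture. As a percentage of the strain 11 single culture level these were at most 9.47% at 12 h, 3.58 to 10.1% at 20 h and at most 16.5% at 30 h. The part of RNA from the other strain in the differences below was not tested.

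Per length, BAT1 was the most abundant of the 10 genes at 12 h. In strain 12 single cultures at 12 h, BAT1 had 3123 ± 308 RPKM, ARO8 1048 ± 133, PDC5 873 ± 346, ARO10 849 ± 489 and ARO9 403 ± 266 (SD, n = 3). The remaining genes were lower there, with 137 ± 29.5 RPKM for BAT2, 68.6 ± 10.1 for PDC6, 39.9 ± 7.42 for ARO80, 29.3 ± 16.4 for ATF1 and 3.96 ± 4.88 for ATF2. The values of ARO9 and ATF2, and so their places in this order, carry the limit of the overlapping genes given above. At 30 h in the same strain and culture the order had changed, with PDC6 at 1466 ± 277 RPKM, PDC5 at 1333 ± 327, BAT1 at 674 ± 173 and ARO10 at 24.4 ± 10.2. Over the 36 libraries the counts of ARO9 spanned 0 to 330 reads, those of ARO10 1 to 1006 and those of PDC6 3 to 286.

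The comparison of mixed against single culture asks how levels in each strain differ when the other is present. The labels give the sampling time but no stage of growth per library. A difference in stage of growth between the cultures therefore cannot be told apart from an answer to the other strain. At 12 h, ARO9 and ARO10 were far lower in mixed than in single culture in both strains, and in strain 11 the other transaminases were also lower and PDC6 was higher. Changes were tested with edgeR's quasi-likelihood test over the 3670 genes that passed a filter on low counts, and a gene was called where its p, adjusted by Benjamini-Hochberg over these genes, did not exceed 0.05. ATF2 did not pass the filter, so 9 of the 10 genes were tested. In strain 12, 2 of the 9 were called at 12 h (2.59% of all genes tested), 0 at 20 h (1.28%) and 0 at 30 h (0.218%). In strain 11, 6 of 9 were called at 12 h (8.61% of all genes), 0 at 20 h (4.99%) and 2 at 30 h (3.81%). At an unadjusted p under 0.05 there were 3 genes in strain 12 at 20 h, 1 in strain 12 at 30 h and 2 in strain 11 at 20 h. DESeq2 called 1, 0 and 1 in these comparisons, and limma on log2(RPKM + 1) called 0, 0 and 1. The median log2 fold change of the 9 genes was -0.47 in strain 12 and -1.21 in strain 11 at 12 h, beside -0.02 and -0.05 over all genes.

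ARO9, the aromatic transaminase that is induced by aromatic amino acids, gave the widest difference of the 9 tested genes between mixed and single culture. In mixed cultures of strain 12 at 12 h, the 3 libraries held 3, 0 and 0 reads of ARO9 (23.3, 0 and 0 CPM), against 330, 26 and 173 reads (676, 209.5 and 1136 CPM) in its single cultures. The libraries of the 2 cultures did not overlap, although replicate 2 of the single cultures was low (log2 fold change -6.70 ± 0.73 (SE), edgeR adjusted p = 8.78e-10). As 3 of 608722 reads against 529 of 816688, the ratio was 0.00761, with an exact 95% interval of 0.00156 to 0.0224 that covers counting error only. The fitted value rests on these few reads and ran from -9.75 (without strain 12 mixed 12 h replicate 1) to -6.02 (without replicate 3 of that group) with a library left out and from -9.33 to -6.68 under other settings, and it was called in every case. Mixed cultures of strain 11 held 9, 12 and 8 reads (42.4, 84.5 and 17.1 CPM), against 233, 105 and 226 reads (465, 373 and 951 CPM) in single culture. These libraries did not overlap either (log2 fold change -3.83 ± 0.54 (SE), edgeR adjusted p = 2.97e-07). YHR137C-A, which overlaps ARO9, had 2, 2 and 0 reads in mixed and 413, 27 and 222 reads in single cultures of strain 12. With limma on log2 RPKM the strain 11 difference was not called (adjusted p = 0.0518 with a pseudocount of 1 and 0.381 with 0.1).

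After 12 h ARO9 was low in every group. At 20 h its libraries ranged over 20.1 to 77.6 CPM in mixed and 17.9 to 113 CPM in single cultures of the strains, and at 30 h over 19.6 to 69.3 CPM in mixed and 0 to 49 CPM in single cultures, with 0 to 18 reads per library. At 30 h every mixed library of a strain lay above its single libraries, on 0 to 9 reads, and neither difference was called (log2 fold change 1.55 ± 1.25 (SE), edgeR adjusted p = 0.814 in strain 12 and 1.54 ± 0.85, adjusted p = 0.345 in strain 11). From 12 to 20 h ARO9 fell in single cultures of strain 12 (log2 fold change -3.85 ± 0.64 (SE), edgeR adjusted p = 3.98e-06) and of strain 11 (log2 fold change -4.01 ± 0.66 (SE), edgeR adjusted p = 3.10e-06). Strain 12 mixed cultures had more ARO9 at 20 h than at 12 h (log2 fold change 2.68 ± 0.92 (SE), edgeR adjusted p = 0.0254), while the log2 fold change in mixed cultures of strain 11 was 0.07 ± 0.71 (SE, edgeR adjusted p = 0.973). The rise in strain 12 mixed culture rests on few reads, and its call was lost without strain 12 mixed 12 h replicate 2 (0.134), strain 12 mixed 12 h replicate 3 (0.166) and strain 12 mixed 20 h replicate 2 (0.294), the adjusted p being in brackets. Its log2 value ran from 1.72 (without strain 12 mixed 20 h replicate 2) to 5.73 (without strain 12 mixed 12 h replicate 1) with a library left out, and from 2.58 to 5.46 under other settings. In the order of the 12 group means, the single cultures of strain 12 (674 ± 463 CPM) and strain 11 (596 ± 311 CPM, SD, n = 3 each) at 12 h stood above all the others, and this was the only step between neighbours whose libraries did not overlap.

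ARO10, the decarboxylase of phenylpyruvate and related keto acids, was lower in mixed culture at 12 h in both strains. Later, the main edgeR fit called it higher in mixed culture only in strain 11 at 30 h. At 12 h, mixed cultures of strain 12 had 23.3, 70.1 and 56.5 CPM, against 2062, 596 and 2587 CPM in its single cultures (log2 fold change -5.05 ± 0.51 (SE), edgeR adjusted p = 1.06e-10). Mixed cultures of strain 11 had 217, 366 and 171 CPM, against 1538, 1086 and 1822 CPM in single culture (log2 fold change -2.60 ± 0.43 (SE), edgeR adjusted p = 8.70e-06). In neither strain did the cultures overlap, and the mixed fractions of strain 12 lay under every other library of that time. With limma on log2(RPKM + 0.1) the strain 11 difference just missed the threshold (adjusted p = 0.0516).

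At 20 h the direction of ARO10 was the opposite. Mixed cultures of strain 12 then had 172, 237 and 187 CPM, against 36.3, 84.6 and 23.7 CPM in single culture, and mixed cultures of strain 11 had 150.4, 148 and 171 CPM, against 25.8, 53.8 and 17 CPM. All 3 mixed libraries lay above all 3 single libraries in each strain, on 2 or 3 reads per single library in strain 12 and 1 to 3 in strain 11. These differences missed the threshold with edgeR (log2 fold change 2.27 ± 0.67 (SE), adjusted p = 0.068 in strain 12 and 2.30 ± 0.76, adjusted p = 0.0611 in strain 11). DESeq2 called both (adjusted p = 0.037 in strain 12 and 0.0423 in strain 11), and so did edgeR on the libraries of each comparison alone (0.0201 and 0.0163).

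At 30 h ARO10 was higher in mixed cultures of strain 11 (127, 554 and 336 CPM, against 24.6, 92.1 and 32.6 CPM in single culture, log2 fold change 2.61 ± 0.57 (SE), edgeR adjusted p = 0.00276), and the libraries did not overlap. Without strain 11 mixed 30 h replicate 2 this difference was not called (adjusted p = 0.1), and without strain 11 single 30 h replicate 2 its log2 value was 3.62. In strain 12 the libraries of mixed culture (209, 23.2 and 39.2 CPM) and single culture (43.7, 32.2 and 67.9 CPM) overlapped at 30 h (log2 fold change 1.06 ± 0.70 (SE), edgeR adjusted p = 0.765). The largest fall of ARO10 was from 12 to 20 h in single culture, with log2 fold change -5.41 ± 0.61 (SE), edgeR adjusted p = 2.63e-10 in strain 12 and log2 fold change -5.53 ± 0.63 (SE), edgeR adjusted p = 3.30e-10 in strain 11. Strain 12 mixed cultures gained ARO10 over the same interval (log2 fold change 1.91 ± 0.51 (SE), edgeR adjusted p = 0.00384), and in mixed cultures of strain 11 the log2 fold change was -0.63 ± 0.48 (SE, edgeR adjusted p = 0.559). Of the 11 steps in the order of its group means, 2 had libraries that did not overlap, that between strain 11 single culture at 12 h (1482 ± 371 CPM) and strain 11 mixed culture at 30 h (339 ± 213 CPM), and that between the mixed cultures at 20 h of strain 12 (199 ± 34 CPM) and strain 11 (156 ± 12.3 CPM, SD, n = 3 each).

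**Figure D2:**
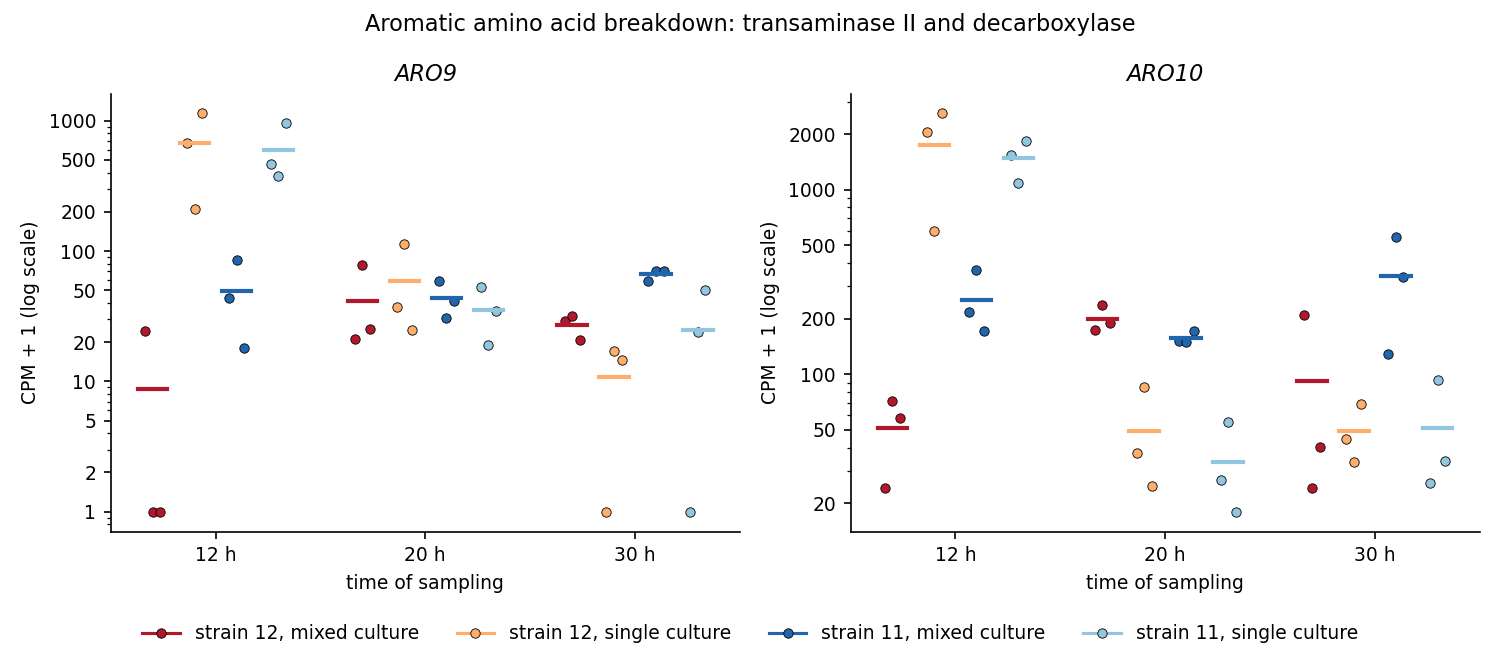
Levels of ARO9 and ARO10 in the 36 libraries, as CPM + 1 on a log axis against the time of sampling. Points are libraries and bars are the means of 3 libraries. At 12 h the mixed cultures lie under the single cultures of the same strain for both genes, and at 20 h ARO10 is higher in mixed culture, with 148 to 237 CPM in mixed and 17 to 84.6 CPM in single culture.

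ARO80, the activator, varied far less than ARO9 and ARO10. Its libraries spanned 0 to 153 CPM, on 0 to 62 reads. Mixed cultures of strain 12 at 12 h had 54.3, 25 and 47.1 CPM, against 96.3, 121 and 151 CPM in single culture, values that did not overlap (log2 fold change -1.53 ± 0.53 (SE), edgeR adjusted p = 0.113). In strain 11 the values were 104, 77.4 and 64 CPM in mixed and 124, 103 and 88.4 CPM in single culture, which overlapped (log2 fold change -0.39 ± 0.46 (SE), edgeR adjusted p = 0.703). ARO80 was called in none of the 25 comparisons with edgeR, DESeq2 or limma, and it had an unadjusted p under 0.05 in 3 (edgeR). On the libraries of the comparison alone, edgeR called it higher at 20 than at 12 h in mixed cultures of strain 12 (log2 fold change 1.23, adjusted p = 0.0381).

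ARO8, the constitutive aromatic transaminase, and the branched-chain transaminases were lower in mixed cultures of strain 11 at 12 h. ARO8 had 1116, 1183 and 888 CPM in mixed and 2322, 3200.0 and 2352 CPM in single culture (log2 fold change -1.31 ± 0.32 (SE), edgeR adjusted p = 0.00466). BAT1, the mitochondrial branched-chain transaminase, had 1743, 2408 and 2125 CPM in mixed and 4512, 4140.1 and 5870.4 CPM in single culture (log2 fold change -1.21 ± 0.29 (SE), edgeR adjusted p = 0.00273). BAT2, its cytosolic counterpart, had 98.9, 113 and 96 CPM in mixed and 132, 426 and 269 CPM in single culture (log2 fold change -1.42 ± 0.42 (SE), edgeR adjusted p = 0.0202). For all 3 genes every mixed library lay under every single library. The call of ARO8 was lost with limma on log2(RPKM + 1) (adjusted p = 0.112), and that of BAT2 with limma (0.478) and without strain 11 single 12 h replicate 2 (0.269), strain 11 mixed 12 h replicate 1 (0.0828), strain 11 mixed 12 h replicate 2 (0.058) and strain 11 mixed 12 h replicate 3 (0.0877).

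In strain 12 at 12 h none of these 3 transaminases was called. ARO8 had 1326, 1808 and 1027 CPM in mixed and 1732, 1821 and 1503 CPM in single culture, which overlapped (log2 fold change -0.28 ± 0.32 (SE), edgeR adjusted p = 0.753). BAT1 and BAT2 did not overlap between the cultures, with 2706, 2990.0 and 2878 CPM in mixed and 3570.4, 4376 and 3939 CPM in single culture for BAT1, at a log2 fold change of -0.47 ± 0.28 (SE, edgeR adjusted p = 0.453). BAT2 had 85.3, 90.2 and 37.7 CPM in mixed and 127, 201 and 171 CPM in single culture of strain 12 (log2 fold change -1.21 ± 0.46 (SE), edgeR adjusted p = 0.158). The difference between the strains in these responses was not called for any of the 3 (edgeR adjusted p = 0.392 for ARO8, 0.545 for BAT1 and 0.966 for BAT2).

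From 12 to 20 h ARO8 and BAT1 fell in 3 or more of the 4 combinations of strain and culture. BAT1 fell in mixed cultures of strain 12 (log2 fold change -1.67 ± 0.29 (SE), edgeR adjusted p = 1.26e-05), single cultures of strain 12 (log2 fold change -2.19 ± 0.31 (SE), edgeR adjusted p = 1.05e-07), mixed cultures of strain 11 (log2 fold change -1.04 ± 0.29 (SE), edgeR adjusted p = 0.0223) and single cultures of strain 11 (log2 fold change -2.51 ± 0.31 (SE), edgeR adjusted p = 3.25e-09). The strain 11 mixed culture call was lost without strain 11 mixed 12 h replicate 2 (0.0738), strain 11 mixed 12 h replicate 3 (0.086), strain 11 mixed 20 h replicate 1 (0.113) and strain 11 mixed 20 h replicate 3 (0.117). ARO8 fell in mixed cultures of strain 12 (log2 fold change -1.38 ± 0.33 (SE), edgeR adjusted p = 0.00129) and in single cultures of strain 12 (log2 fold change -2.08 ± 0.36 (SE), edgeR adjusted p = 1.04e-05) and strain 11 (log2 fold change -1.75 ± 0.34 (SE), edgeR adjusted p = 7.00e-05). BAT2 fell in single cultures of strain 12 (log2 fold change -1.54 ± 0.57 (SE), edgeR adjusted p = 0.0387) and strain 11 (log2 fold change -2.24 ± 0.54 (SE), edgeR adjusted p = 0.00113), and the call in strain 12 was lost without strain 12 single 12 h replicate 2 (0.0857), strain 12 single 12 h replicate 3 (0.0616), strain 12 single 20 h replicate 1 (0.0605) and strain 12 single 20 h replicate 3 (0.197) and on the libraries of the comparison alone (0.0688). Between 20 and 30 h none of the 3 was called with edgeR, DESeq2 or limma. In the order of its group means BAT1 had 3 steps without overlap. These separated mixed cultures of strain 12 at 12 h (2858 ± 143 CPM) from its single cultures at 12 h (3962 ± 403 CPM), and mixed cultures of strain 11 at 12 h (2092 ± 334 CPM) from both those of strain 12 at 12 h and those of strain 11 at 20 h (1021 ± 196 CPM, SD, n = 3 each).

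**Figure D3:**
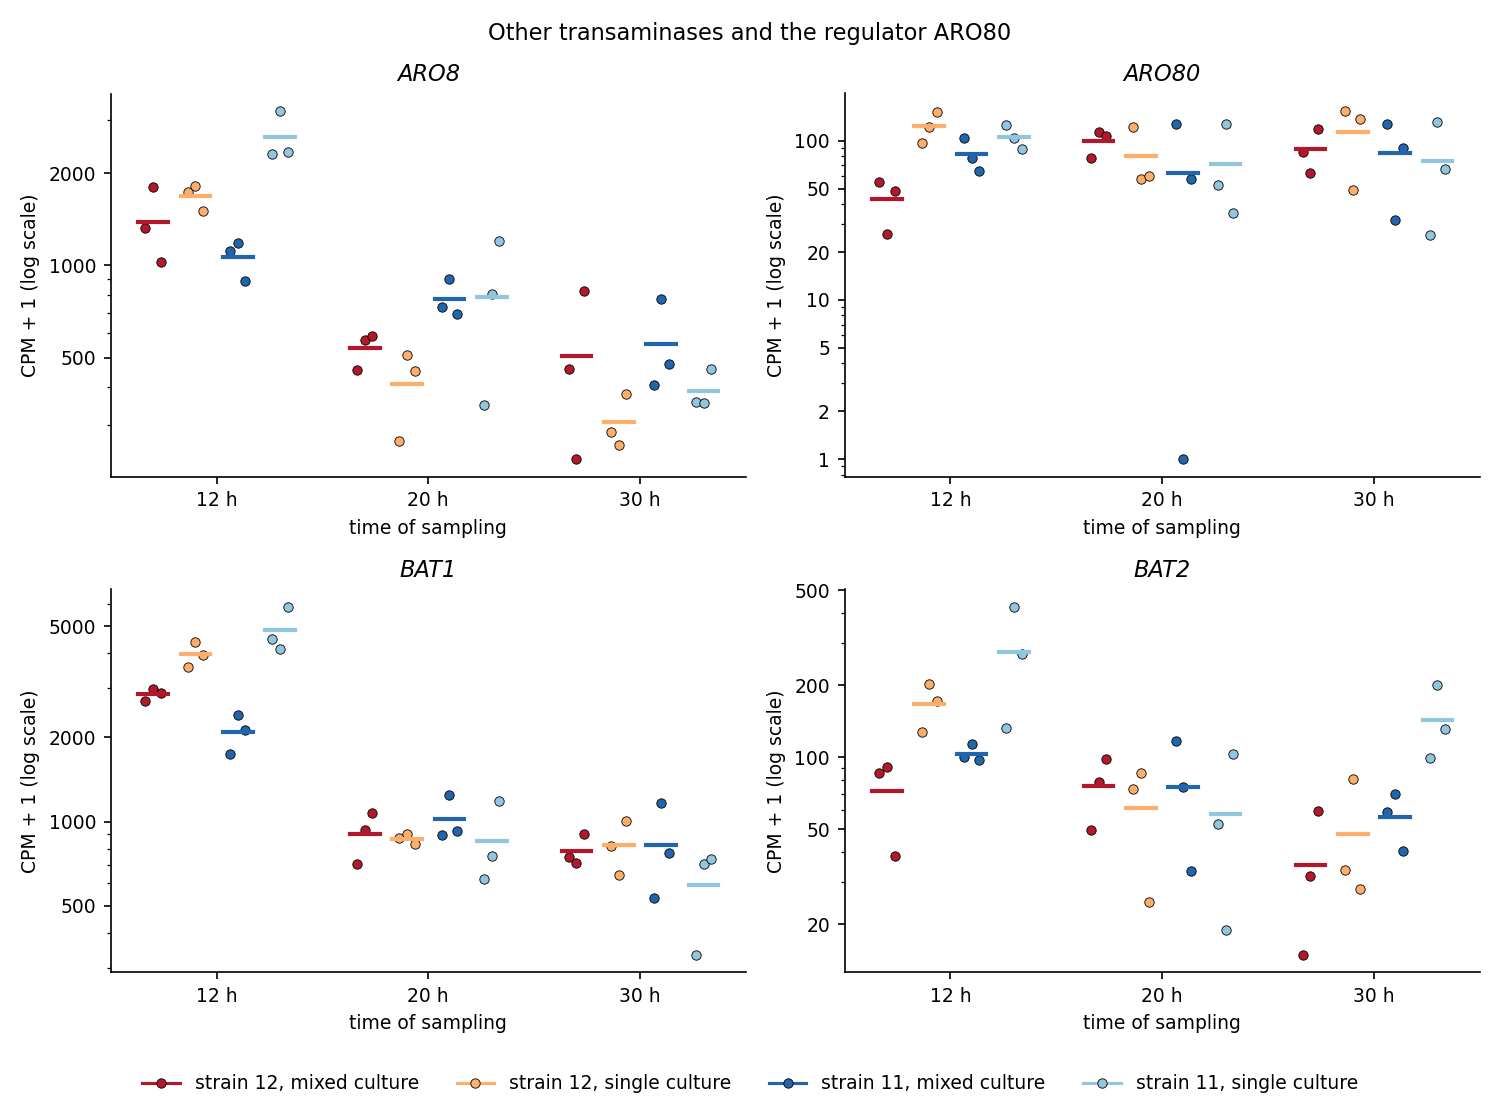
Levels of ARO8, ARO80, BAT1 and BAT2 in the 36 libraries, as CPM + 1 on a log axis against the time of sampling. Points are libraries and bars are the means of 3 libraries. ARO8 and BAT1 are highest at 12 h, where the single cultures of strain 11 reach 3200.0 CPM for ARO8 and 5870.4 CPM for BAT1, and ARO80 stays between 0 and 153 CPM.

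PDC6, the minor pyruvate decarboxylase, ran against the transaminases. It rose between 12 and 20 h in every strain and culture, and at 12 h it was higher in mixed than in single cultures of strain 11. Mixed cultures of strain 11 had 24, 17 and 26 reads of PDC6 (113, 119.7 and 55.5 CPM), against 10, 5 and 3 reads (19.9, 17.7 and 12.6 CPM) in single culture (log2 fold change 2.34 ± 0.44 (SE), edgeR adjusted p = 9.79e-05). In strain 12, mixed cultures had 139.6, 100.2 and 132 CPM and single cultures 137, 105 and 131 CPM (log2 fold change -0.04 ± 0.36 (SE), edgeR adjusted p = 0.974). Thus the single cultures of strain 11 were the low group at 12 h, while the other 3 groups lay between 55.5 and 139.6 CPM. The mean PDC6 level of the strain 11 mixed fractions was 77.6% of that of the strain 12 mixed fractions. The strain 12 markers stood there at 6.57 to 9.14% of their level in strain 12 single cultures, which is a different base. The part of strain 12 RNA in this PDC6 level was not tested.

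At 30 h PDC6 was lower in mixed cultures of strain 11 (1503, 677 and 622 CPM) than in its single cultures (2472, 2195 and 1893 CPM, log2 fold change -1.24 ± 0.31 (SE), edgeR adjusted p = 0.0101). The libraries did not overlap, but the call was lost without strain 11 single 30 h replicate 1 (0.0509), strain 11 mixed 30 h replicate 2 (0.169) and strain 11 mixed 30 h replicate 3 (0.128). From 12 to 20 h PDC6 rose in mixed cultures of strain 12 (log2 fold change 2.48 ± 0.34 (SE), edgeR adjusted p = 1.23e-07), single cultures of strain 12 (log2 fold change 3.19 ± 0.35 (SE), edgeR adjusted p = 1.25e-10), mixed cultures of strain 11 (log2 fold change 2.30 ± 0.36 (SE), edgeR adjusted p = 1.79e-05) and single cultures of strain 11 (log2 fold change 5.41 ± 0.42 (SE), edgeR adjusted p = 9.00e-16). From 20 to 30 h it rose further in single cultures of strain 11 (log2 fold change 1.504 ± 0.32 (SE), edgeR adjusted p = 0.00741), a call lost without strain 11 single 20 h replicate 3 (0.119) and strain 11 single 30 h replicate 1 (0.0699). Group means ran from 16.8 ± 3.76 CPM in single cultures of strain 11 at 12 h to 2587 ± 564 CPM in single cultures of strain 12 at 30 h (SD, n = 3 each). The 3 steps without overlap were those between the mixed cultures at 20 h of strain 12 and strain 11, between strain 11 mixed culture at 20 h and the highest group of 12 h, and between the 2 lowest groups.

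PDC5, another pyruvate decarboxylase, was not called between the cultures in either strain. In strain 12 its log2 fold changes were -0.32 ± 0.41, -1.18 ± 0.43 and -0.92 ± 0.42 at 12, 20 and 30 h (SE, edgeR adjusted p = 0.791, 0.161 and 0.612). In strain 11 they were 0.49 ± 0.42, -0.03 ± 0.45 and -0.50 ± 0.43 (SE, edgeR adjusted p = 0.571, 0.984 and 0.595). Its group means lay between 401 ± 168 CPM in single cultures of strain 11 at 12 h and 2343 ± 572 CPM in single cultures of strain 12 at 30 h (SD, n = 3 each). By RPKM, the median ratio of PDC6 to PDC5 was 0.1 in mixed and 0.061 in single cultures of strain 12 at 12 h, and 0.175 in mixed and 0.0333 in single cultures of strain 11. At 30 h it was 1.67 in mixed and 1.17 in single cultures of strain 12, and 0.913 in mixed and 2.40 in single cultures of strain 11.

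The comparison of the strains asks which genes differ with the strain itself. At 12 h PDC5 and PDC6 were higher in strain 12 than in strain 11 in single culture, and ARO10 was lower in strain 12 in mixed culture. In single culture 2 of the 9 genes were called at 12 h (1.04% of all genes), 0 at 20 h (0.572%) and 0 at 30 h (0.518%). In mixed culture 1 of 9 was called at 12 h (5.04%), 0 at 20 h (0.191%) and 0 at 30 h (0.899%). The later single cultures had 2 (20 h) and 3 (30 h) genes at an unadjusted p under 0.05, and the later mixed cultures 0 and 2. DESeq2 called ARO10 in mixed culture at 30 h and otherwise 0, and limma on log2(RPKM + 1) called 0 in all 4.

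PDC6 had 137, 105 and 131 CPM in single cultures of strain 12 at 12 h, against 19.9, 17.7 and 12.6 CPM in strain 11, without overlap (log2 fold change 2.81 ± 0.43 (SE), edgeR adjusted p = 7.97e-06). PDC5 had 846, 1797 and 2153 CPM in strain 12 and 211, 532 and 459 CPM in strain 11, also without overlap (log2 fold change 1.998 ± 0.43 (SE), edgeR adjusted p = 0.00331). The PDC5 difference was not called on the libraries of the comparison alone (0.0503), with limma on log2(RPKM + 1) (0.127) or without strain 11 single 12 h replicate 1 (0.0959). In mixed culture at 12 h PDC5 had 1528, 982 and 1319 CPM in strain 12 and 509, 683 and 497 CPM in strain 11, which did not overlap, and missed the threshold (log2 fold change 1.19 ± 0.42 (SE), edgeR adjusted p = 0.0897). On the libraries of that comparison alone it was called without (0.00819) and with the replicate number as a block (2.13e-05). ARO10 had 23.3, 70.1 and 56.5 CPM in mixed cultures of strain 12, against 217, 366 and 171 CPM in strain 11 (log2 fold change -2.20 ± 0.51 (SE), edgeR adjusted p = 0.00352), and this difference was not called without strain 11 mixed 12 h replicate 2 (0.0552). ARO9 had 23.3, 0 and 0 CPM in strain 12 and 42.4, 84.5 and 17.1 CPM in strain 11, which overlapped (log2 fold change -2.69 ± 0.92 (SE), edgeR adjusted p = 0.074).

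ATF1, the main alcohol acetyltransferase, was called in none of the 25 comparisons with edgeR, DESeq2 or limma, and it had an unadjusted p under 0.05 in 3 (edgeR). Its libraries spanned 18.8 to 218 CPM, on 3 to 24 reads. In single cultures of strain 12 it had 28.7, 80.6 and 39.4 CPM at 12 h, 145, 84.6 and 107 CPM at 20 h and 218, 193 and 136 CPM at 30 h. The difference of 20 from 12 h lay near the threshold (log2 fold change 1.37 ± 0.54 (SE), edgeR adjusted p = 0.0541). In single cultures of strain 11 the values were 33.9, 35.5 and 46.3 CPM at 12 h, 103, 71.8 and 50.9 CPM at 20 h and 111, 53.7 and 81.6 CPM at 30 h. Between mixed and single culture its log2 fold changes ran from -0.93 to 0.71. ATF2, the second acetyltransferase, had 51 reads over all 36 libraries, 0 to 7 per library and 0 in 16 of them. Without the filter on low counts edgeR called it in 0 of 25 comparisons, also 0 at an unadjusted p under 0.05, the lowest adjusted p being 0.509. Differences of ATF2 were not detectable at this depth, and DESeq2 and limma were run on the filtered genes only.

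**Figure D4:**
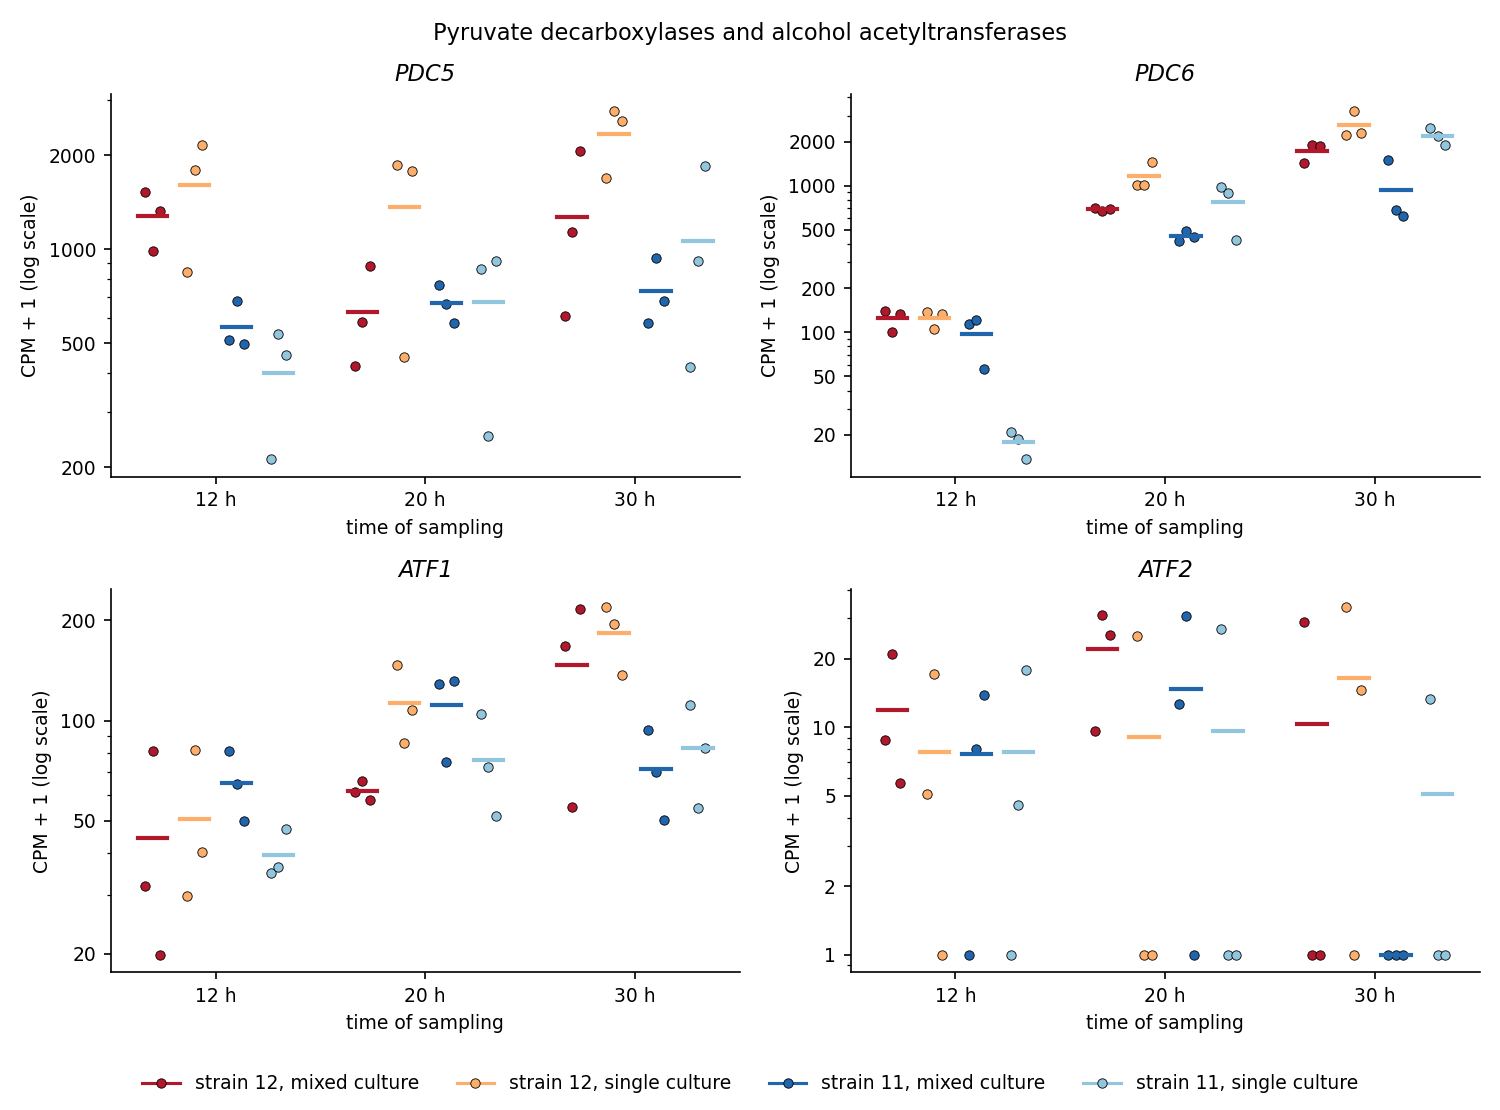
Levels of PDC5, PDC6, ATF1 and ATF2 in the 36 libraries, as CPM + 1 on a log axis against the time of sampling. Points are libraries and bars are the means of 3 libraries. PDC6 rises with time and is lowest in the single cultures of strain 11 at 12 h (12.6 to 19.9 CPM), and 16 libraries have no read of ATF2.

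Over time, most calls fell between 12 and 20 h, when many genes of the genome changed. In that interval 5 of 9 genes were called in mixed cultures of strain 12 (23.8% of all genes), 6 in single cultures of strain 12 (25.7%), 2 in mixed cultures of strain 11 (5.78%) and 6 in single cultures of strain 11 (28.8%). From 20 to 30 h the counts were 0 (0.0272%) and 0 (0.627%) in mixed and single cultures of strain 12, and 0 (0.0%) and 1 (0.708%) in those of strain 11. At an unadjusted p under 0.05 the 3 comparisons at 0 had 4, 1 and 2 genes. DESeq2 called PDC6 in both cultures of strain 12 and none in mixed cultures of strain 11, and limma called 0 in all 3. In mixed cultures of strain 12 from 12 to 20 h, RLE scaling in place of TMM moved the median of all genes by -0.11 on the log2 scale, and the calls of ARO10, ARO9, ARO8, BAT1 and PDC6 kept their direction and their side of the threshold there. PDC5 was called in that comparison with RLE scaling (log2 fold change -1.16, adjusted p = 0.0379) and not with TMM scaling (-1.04 ± 0.42 (SE), edgeR adjusted p = 0.0648).

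The responses to culture were then compared between strains and between times. At 12 h the response differed between the strains for 2 of 9 genes, ARO10 and PDC6 (1.17% of all genes), and at 20 h (0.0817%) and 30 h (0.0272%) for 0. At those later times 0 genes had an unadjusted p under 0.05, and DESeq2 and limma called 0. Between 12 and 20 h the response of strain 12 to mixed culture changed for 2 of 9 genes, ARO9 and ARO10 (2.45% of all genes), and that of strain 11 for 4 of 9, ARO9, ARO10, BAT1 and PDC6 (2.64%). The log2 differences are given with the results for a closer look.

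**Figure D5:**
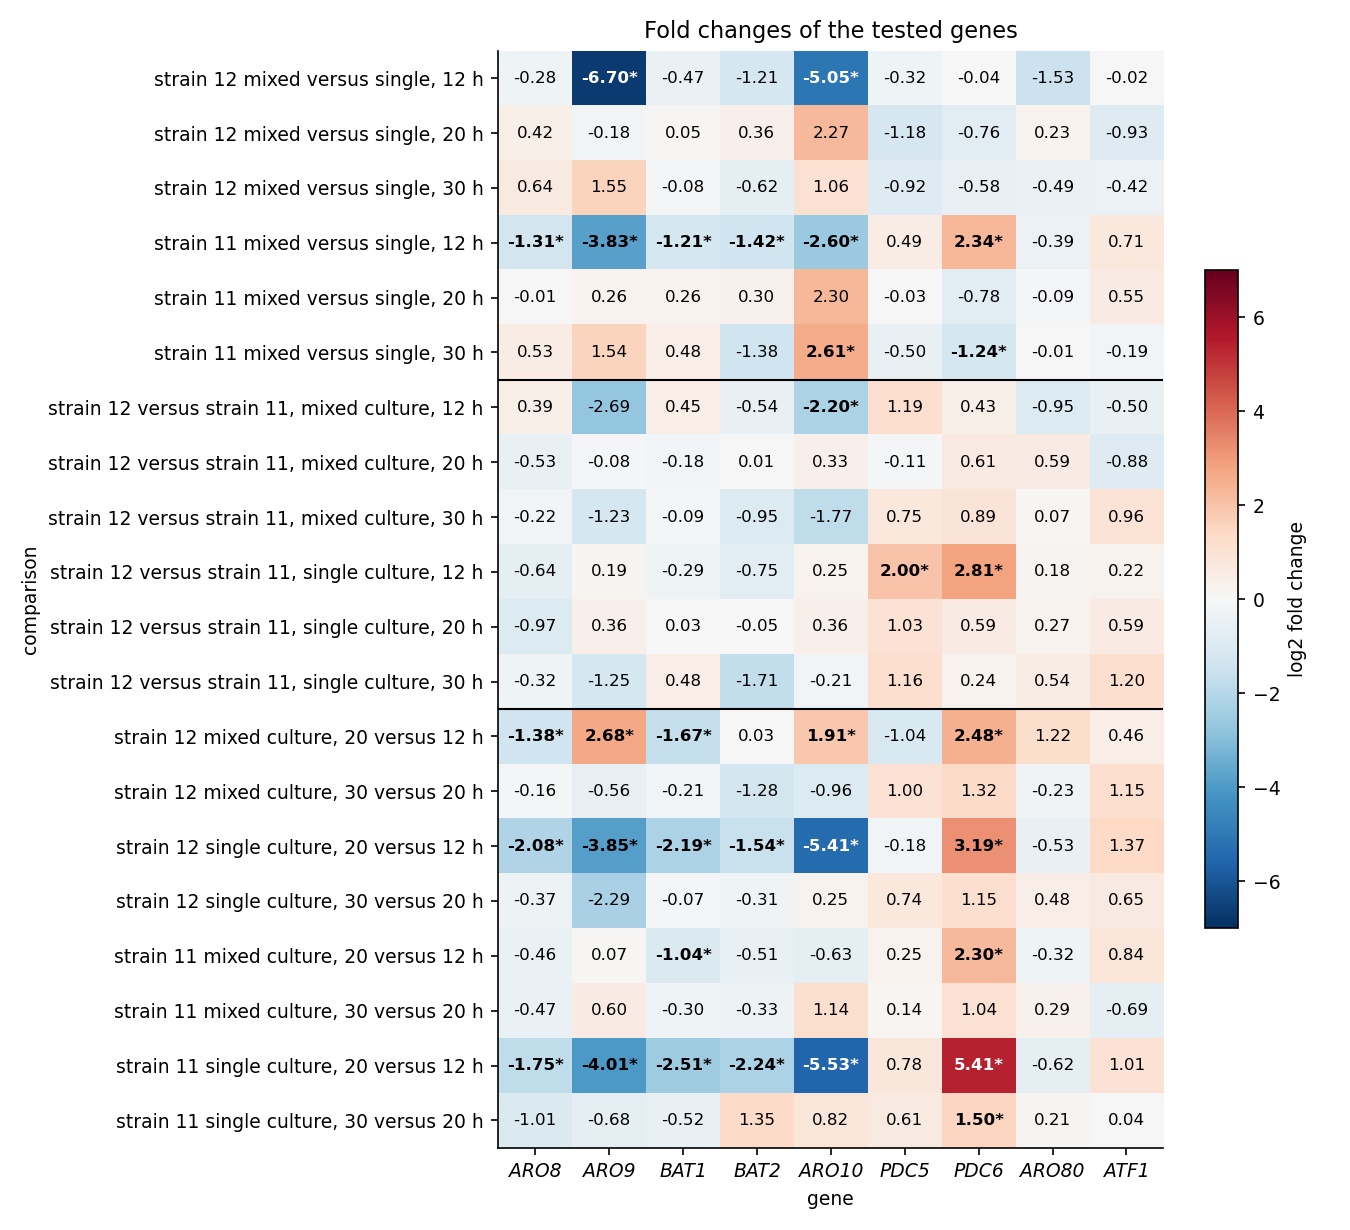
Log2 fold changes of the 9 tested genes (columns) in the 20 comparisons of culture, strain and time (rows), from the edgeR fit. Colour gives the log2 fold change, and an asterisk with bold type marks an adjusted p of at most 0.05. ARO9 and ARO10 fall in mixed culture at 12 h in both strains (-6.70 and -5.05 in strain 12, -3.83 and -2.60 in strain 11), and ARO80 and ATF1 have no asterisk.

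Genes around these steps were taken from lists. Of 12 genes for the uptake of aromatic and branched amino acids, 7 were tested, and AGP1, a broad amino acid permease, fell in mixed culture at 12 h in both strains. It had 46.5, 10 and 4.71 CPM in mixed and 69.7, 419 and 158 CPM in single cultures of strain 12 (log2 fold change -3.48 ± 0.69 (SE), edgeR adjusted p = 0.00144), and 66, 84.5 and 40.5 CPM in mixed and 275, 379.6 and 639.6 CPM in single cultures of strain 11 (log2 fold change -2.82 ± 0.55 (SE), edgeR adjusted p = 1.72e-04). The libraries overlapped in neither strain. No other gene of the list was called between cultures or strains, by edgeR or DESeq2. The median log2 fold change of the list at 12 h was -0.20 in strain 12 and -0.16 in strain 11. The call in strain 12 was lost without strain 12 single 12 h replicate 2 (0.0599), at a log2 value of -2.54, which was -4.66 without strain 12 mixed 12 h replicate 1. Both calls were lost with limma on log2(RPKM + 1) (0.17 in strain 12 and 0.297 in strain 11).

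The 18 genes for the later steps of the pathway, all tested, include the dehydrogenases that act on the aldehydes. In mixed cultures of strain 12, 0 were called at 12 h (2.59% of all genes), 1 fell at 20 h (1.28%) and 0 were called at 30 h (0.218%). In those of strain 11, 3 rose and 0 fell at 12 h (8.61% of all genes called), 3 rose and 1 fell at 20 h (4.99%), and 2 rose and 0 fell at 30 h (3.81%). At 12 and 30 h in strain 12, 4 and 2 genes had an unadjusted p under 0.05, DESeq2 called 1 and 0, and limma called 0. ALD6, a cytosolic aldehyde dehydrogenase that makes acetate, had 4178, 5541 and 3147 CPM in mixed and 1025, 969 and 1107 CPM in single cultures of strain 11 at 12 h (log2 fold change 2.05 ± 0.34 (SE), edgeR adjusted p = 8.68e-06), and it stayed higher in mixed culture at 20 h (log2 fold change 1.93 ± 0.34 (SE), edgeR adjusted p = 1.57e-04) and 30 h (log2 fold change 2.05 ± 0.34 (SE), edgeR adjusted p = 4.37e-05). ALD3, a stress-responsive aldehyde dehydrogenase, had 683, 789 and 582 CPM in mixed and 33.9, 39 and 21 CPM in single cultures of strain 11 at 12 h (log2 fold change 4.38 ± 0.45 (SE), edgeR adjusted p = 7.25e-11). Both lay higher in strain 11 mixed fractions than in those of strain 12 at 12 h, with log2 fold changes of strain 12 over strain 11 of -1.80 ± 0.33 for ALD6 and -3.02 ± 0.42 for ALD3 (SE, edgeR adjusted p = 1.68e-04 and 7.88e-07). In that comparison 1 gene of the list was called higher and 2 lower in strain 12 (5.04% of all genes called). The higher gene was ADH4 (log2 fold change 1.93 ± 0.36 (SE), edgeR adjusted p = 1.79e-04), a call lost with limma on log2(RPKM + 1) (0.111). ADH4 was also higher in strain 12 in single culture at 30 h (log2 fold change 1.87 ± 0.45 (SE), edgeR adjusted p = 0.0308), and limma did not call it there (0.0768). ADH6, an NADPH-dependent alcohol dehydrogenase, rose at all 3 times in mixed cultures of strain 11, by 1.46, 2.14 and 2.08 on the log2 scale, each call being lost without any of 2 or 3 of the 6 libraries (lowest log2 value 1.21, 1.82 and 1.38). GRE2, a reductase of aldehydes, was lower in mixed culture at 20 h in strain 12 (log2 fold change -1.66 ± 0.42 (SE), edgeR adjusted p = 0.0296) and in strain 11 (log2 fold change -1.52 ± 0.46 (SE), edgeR adjusted p = 0.0346). The GRE2 call was lost without any of the 6 libraries in strain 12 (adjusted p = 0.0531 to 0.275) and without any of 4 libraries in strain 11 (0.07 to 0.305). The median log2 fold change of the list at 12 h was 0.40 in strain 12 and -0.04 in strain 11.

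Of 4 genes for ester hydrolysis and ethyl esters, 3 were tested. EEB1, which makes ethyl esters, was called lower in mixed cultures of strain 11 at 20 h (log2 fold change -1.85 ± 0.55 (SE), edgeR adjusted p = 0.0337). That value rests on replicate 3 of the single cultures. The libraries had 174, 104 and 130.0 CPM in mixed and 77.5, 161 and 1272 CPM in single culture, and without that library the log2 fold change was 0.27 (adjusted p = 0.908). The call was also lost without any of the mixed libraries (0.0687 to 0.142). Of 12 genes of aromatic amino acid synthesis, 10 were tested, and edgeR called 0 in the 60 tests between cultures and 0 in the 60 between strains. In each set of tests 11 had an unadjusted p under 0.05, DESeq2 called 1 and 0, and limma called 0. The list's median log2 fold change at 12 h was 0.52 in strain 12 and -0.12 in strain 11. Of the 11 genes of branched amino acid synthesis, ILV5, an enzyme of valine and isoleucine synthesis, rose in mixed cultures of strain 12 at 12 h (log2 fold change 1.40 ± 0.31 (SE), edgeR adjusted p = 0.00506). LEU2 and OAC1, an enzyme and a mitochondrial carrier of leucine synthesis, fell in mixed cultures of strain 11 (log2 fold change -1.003 ± 0.31 (SE), edgeR adjusted p = 0.027 for LEU2 and log2 fold change -1.32 ± 0.44 (SE), edgeR adjusted p = 0.0471 for OAC1). The ILV5 call was lost without strain 12 single 12 h replicate 2 (0.0784), that of LEU2 without any of 4 libraries (0.07 to 0.271) and that of OAC1 without any of the 6 (0.0538 to 0.216). Of 8 other settings, 6 kept ILV5, 5 LEU2 and 5 OAC1. In these comparisons 2.59% (strain 12) and 8.61% (strain 11) of all genes were called. LEU9 was lower in strain 12 than in strain 11 in single culture at 12 h (log2 fold change -1.60 ± 0.42 (SE), edgeR adjusted p = 0.0371, 1.04% of all genes called). Its call held in 1 of 6 fits with a library left out. The median of these 11 genes at 12 h was 0.33 in strain 12 and -0.67 in strain 11.

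Genes with the most similar profile were sought by the Pearson correlation of mean log2 CPM over the 12 groups, as a description of group means that share libraries and depth. Closest to ARO9 were YHR137C-A (0.976), which overlaps it, AGP1 (0.913) and DOG2 (0.895), and closest to ARO10 were PRE8 (0.929), AGP1 (0.908) and RPT1 (0.898). AGP1 thus stood among the 3 genes most like each of them. ARO8 ran with HYP2 (0.972), HIS4 (0.971) and DED81 (0.967), and BAT1 with ACS2 (0.982). BAT2 ran with PUT3 (0.906), PDC6 with PIR3 (0.965), PDC5 with YCF1 (0.851), ATF1 with MPM1 (0.871) and ARO80 with PSP2 (0.834). Among the genes themselves the coefficient was 0.90 between ARO9 and ARO10, 0.94 between ARO8 and BAT1, -0.97 between ARO8 and PDC6, and 0.54 and 0.51 between ARO80 and ARO9 and ARO10.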

How the data were processed

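The authors amplified the RNA of sorted cells, sequenced it on a SOLiD instrument (75 bp reads), aligned the reads to Saccer2 and deposited for each library the read count per gene and per exon. They also deposited RPKM values, reads per kilobase of coding length and per M reads counted on exons, which were recomputed from the counts for 100% of genes within a relative tolerance of 0.01. The exon tables name LifeScope, and the submitters' processing notes name Cufflinks 1.3.0 and Cuffdiff. The use of strand is not stated there. The marker carried by each library is not given in the labels and was not a term.

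The gene counts were fitted in edgeR 4.0.16 (R 4.3.3, limma 3.58.1) with filterByExpr (3670 genes kept), TMM factors (0.888 to 1.08) and 1 coefficient for each of 12 groups, and 25 contrasts were tested two-sided with Benjamini-Hochberg adjustment over all genes (common dispersion 0.0833). The count test was used in place of the Cuffdiff test of the study because counts were deposited. An exact permutation test of 3 against 3 libraries cannot go under 0.1 and was not used. Alternatives were DESeq2 1.42.0, RLE factors, no filter, limma on log2(RPKM + 1) and log2(RPKM + 0.1), exon counts, the libraries of the comparison only, the same plus a block for the replicate number, and each library left out.

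Same-numbered libraries deviated together (every correlation over 0.1) only between the strains at 12 h, in single culture (0.453, 0.288 and 0.380) and in mixed culture (0.196, 0.104 and 0.173). In single culture this pairing comes from the correlations alone. In mixed culture the methods also sorted both strains from shared fermentations, but whether equal replicate numbers mean a shared fermentation is not stated. The main fit had no term for pairing. Libraries of a group differed beyond sampling noise in all 36 pairs (chi-square per degree of freedom 2.01 to 8.84). By the methods of the study the fermentations were run in triplicate, with the fluorescent markers exchanged between the strains, but the labels do not tie a library to a fermentation. The p-values measure the spread between these libraries, which may be technical.

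All 10 genes are named, and of the lists up to 4 genes called in a comparison of cultures or strains per list, and the 3 genes most like each tested gene. The genes, lists and markers were chosen with earlier results of these data known. Symbols come from R64 (6025 of 6717 identifiers matched), whose coordinates differ from Saccer2 and were used for sequences only.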

Additional observations from a re-analysis of the deposited data

Results flagged for a closer look

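The response to mixed culture differed between strains or times in 8 tests of the difference itself, an interaction term in the edgeR fit. At 12 h the log2 response of strain 12 minus that of strain 11 was -2.45 ± 0.64 (SE, edgeR adjusted p = 0.0375) for ARO10, whose fall in mixed culture was steeper in strain 12, and -2.38 ± 0.57 (SE, edgeR adjusted p = 0.0181) for PDC6, which rose in strain 11. Both calls were lost with some libraries left out, 1 at a time. That of ARO10 was also lost with edgeR on the libraries of the comparison only (adjusted p = 0.0596). Limma lost it on log2(RPKM + 1) (0.404) and log2(RPKM + 0.1) (0.444). The ARO10 difference was not called without strain 11 single 12 h replicate 1 (0.0898), strain 11 single 12 h replicate 2 (0.0968), strain 12 single 12 h replicate 1 (0.0814), strain 12 single 12 h replicate 3 (0.103), strain 11 mixed 12 h replicate 1 (0.0718), strain 11 mixed 12 h replicate 2 (0.209), strain 12 mixed 12 h replicate 1 (0.118) and strain 12 mixed 12 h replicate 3 (0.082), and the PDC6 difference was not called without strain 11 single 12 h replicate 1 (0.0575), strain 11 single 12 h replicate 3 (0.0605), strain 12 single 12 h replicate 1 (0.0524), strain 11 mixed 12 h replicate 1 (0.0837) and strain 11 mixed 12 h replicate 2 (0.0909) (adjusted p in brackets).

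Between 20 and 12 h, the log2 response to mixed culture of strain 12 differed by 6.53 ± 1.10 (SE, edgeR adjusted p = 1.30e-04) for ARO9 and 7.32 ± 0.80 (SE, edgeR adjusted p = 4.19e-09) for ARO10, and no library left out ended these calls. The ARO9 difference ran from 5.63 to 9.58 with a library left out, the highest without strain 12 mixed 12 h replicate 1, and was lost under 1 of 8 other settings (adjusted p = 0.0706). That of strain 11 differed by 4.08 ± 1.06 (SE, edgeR adjusted p = 0.0194) for ARO9, 4.90 ± 0.84 (SE, edgeR adjusted p = 7.27e-05) for ARO10, 1.47 ± 0.42 (SE, edgeR adjusted p = 0.0404) for BAT1 and -3.11 ± 0.55 (SE, edgeR adjusted p = 1.17e-04) for PDC6. The ARO9 call was lost without strain 11 mixed 12 h replicate 3 (0.0627), strain 11 single 20 h replicate 2 (0.055), strain 11 mixed 20 h replicate 1 (0.0881) and strain 11 mixed 20 h replicate 3 (0.0693), and the BAT1 call without strain 11 single 12 h replicate 1 (0.0581), strain 11 single 12 h replicate 3 (0.0999), strain 11 mixed 12 h replicate 1 (0.12), strain 11 mixed 12 h replicate 2 (0.0504), strain 11 mixed 12 h replicate 3 (0.0627), strain 11 single 20 h replicate 1 (0.15), strain 11 single 20 h replicate 2 (0.104), strain 11 mixed 20 h replicate 2 (0.129) and strain 11 mixed 20 h replicate 3 (0.0682). The ARO9 call was also lost with limma on log2(RPKM + 1) (adjusted p = 0.225) and log2(RPKM + 0.1) (0.562). That of BAT1 was also lost with limma on these scales (0.0581 and 0.0606). With edgeR it was lost without the filter on low counts (0.0535) and on exon counts (0.0505). The calls of ARO10 and PDC6 in strain 11 held with each library left out.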

How the results depend on the processing

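Counts are of the 9 tested genes over the comparisons of a kind, from edgeR unless named. The strain comparisons gave 3 calls (1.38% of all tests over all genes were called), 6 without the filter on low counts and 5 on the libraries of each comparison with the replicate number as a block, and 2 to 5 with each library left out, the 5 arising without strain 11 mixed 30 h replicate 1. The strain by culture interactions gave 2 calls (0.427%), 1 on the libraries of the comparison only, 1 with limma on log2(RPKM + 1), 1 with log2(RPKM + 0.1), and 0 to 2 with each library left out. The culture by time interactions gave 6 calls (2.55%), 3 with limma on log2(RPKM + 0.1), and 4 to 7 with each library left out. Mixed against single culture gave 10 calls (3.58%) and 9 to 12 with each library left out, and time gave 20 (10.7%) and 19 to 21. Between cultures of strain 11 at 12 h, limma on log2(RPKM + 0.1) lost ARO8 (adjusted p = 0.126), ARO9 (0.381), ARO10 (0.0516) and BAT2 (0.534). It added ARO10 in strain 11 at 20 h (0.0339). From 12 to 20 h it lost ARO9 in single cultures of strain 11 (0.0876) and strain 12 (0.144). It also lost BAT2 in single (0.0619) and ARO8 in mixed cultures of strain 12 (0.0502). EEB1 in mixed against single cultures of strain 11 at 20 h ranged over -2.42 to 0.27 with each library left out, reversing without strain 11 single 20 h replicate 3 (adjusted p = 0.908). Of the values of single genes, 537 kept their direction and their side of the threshold and 87 lost the threshold under the other settings, and with a library left out 406 kept both, 103 lost the threshold and 1 reversed. The cause of these changes was not tested. Where the replicate numbers pair the libraries, the libraries of the comparison gave a PDC5 call in mixed culture at 12 h with and without the block (edgeR adjusted p = 2.13e-05 and 0.00819). PDC5 in single culture at 12 h was called there with the block and not without it (0.0503). Against the main fit, the block setting changed, in these 12 h comparisons, no call of the 9 genes but PDC5 in mixed culture. Where the replicate numbers did not pair the libraries, it added PDC5 for strain 12 over strain 11 in 30 h single cultures (0.0389). In mixed cultures of strain 12 it added PDC5 from 12 to 20 h (0.0209) and PDC6 from 20 to 30 h (0.017). In single cultures of strain 12 it lost BAT2 from 12 to 20 h (0.0812). Low counts limit ATF1, ATF2, BAT2, ARO80 and, after 12 h, ARO9 and ARO10. They also limit ARO9 in mixed cultures of strain 12 and PDC6 in single cultures of strain 11 at 12 h.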

Other observations

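Of a list of 32 genes for nitrogen catabolite repression, which holds regulators as well as genes of nitrogen use, 30 were tested. In strain 12, mixed culture had 0 higher and 4 lower at 12 h (2.59% of all genes called), 1 higher and 0 lower at 20 h (1.28%), and 0 called at 30 h (0.218%) by edgeR, DESeq2 and limma, with 2 at an unadjusted p under 0.05. In strain 11, 2 rose and 5 fell at 12 h (8.61% of all genes called), 3 rose and 1 fell at 20 h (4.99%), and 1 rose and 1 fell at 30 h (3.81%). CAR1, which encodes arginase, rose in mixed cultures of strain 11 at 12 h (log2 fold change 2.68 ± 0.38 (SE), edgeR adjusted p = 3.84e-07), 20 h (log2 fold change 2.67 ± 0.46 (SE), edgeR adjusted p = 8.10e-05) and 30 h (log2 fold change 3.37 ± 0.49 (SE), edgeR adjusted p = 1.65e-06), and in those of strain 12 at 20 h (log2 fold change 1.75 ± 0.46 (SE), edgeR adjusted p = 0.0368). It had 509, 683 and 416 CPM in mixed and 89.8, 74.5 and 80 CPM in single cultures of strain 11 at 12 h. In strain 12 at 12 h CAR1 was lower in mixed (95.2 to 147 CPM) than in single culture (217 to 314 CPM), without overlap, and was not called. Between the strains at 12 h, 5 genes of the list were higher and 1 lower in strain 12 in single culture (1.04% of all genes called). In mixed culture 1 was higher and 2 were lower (5.04%). DAL5, the allantoate permease, fell in mixed cultures of strain 11 at 12 h (log2 fold change -1.39 ± 0.33 (SE), edgeR adjusted p = 0.00252) and 20 h (log2 fold change -1.83 ± 0.34 (SE), edgeR adjusted p = 3.87e-04). DAL7, a malate synthase of allantoin breakdown, fell at 12 h in strain 12 (log2 fold change -2.72 ± 0.35 (SE), edgeR adjusted p = 2.35e-07) and strain 11 (log2 fold change -1.12 ± 0.34 (SE), edgeR adjusted p = 0.026). CAR2, the next enzyme of arginine breakdown, fell in mixed cultures of strain 12 at 12 h (log2 fold change -2.54 ± 0.48 (SE), edgeR adjusted p = 7.49e-04). The calls of CAR1 and CAR2 were lost with limma on log2(RPKM + 1), and those of DAL7 in strain 11 and CAR1 in strain 12 also when 1 library was left out (strain 11 single 12 h replicate 2 (0.477), strain 11 mixed 12 h replicate 1 (0.1) and strain 11 mixed 12 h replicate 3 (0.129) for DAL7, and any of 5 of the 6 libraries for CAR1, 0.0693 to 0.248). The median of the 30 genes at 12 h was -0.30 in strain 12 and -0.36 in strain 11.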
